A study of Mus musculus with 6 samples.

Results

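The genes described here code for the proteins that present peptides to T cells in mouse tendon. They were 10 of the 53819 genes listed in the deposited tables, found by symbol. A total of 7 of them belong to the MHC class II pathway (*H2-Aa*, *H2-Ab1*, *H2-Eb1*, *H2-DMa*, *H2-DMb1*, *Cd74* and *Ciita*) and 3 to MHC class I (*H2-K1*, *H2-D1* and *B2m*). All 10 passed the filter on low counts, as did 17496 genes in all.

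RNA was sequenced from flexor digitorum longus (FDL) tendons of the mouse hind paw, which had been cut and sutured in mice 10 to 12 weeks old, male and female. Tendons were harvested at D28 post-surgery from 3 DTRScxLin mice (Scx-Cre+; DTR F/+) and 3 WT littermates (Scx-Cre-; DTR F/+), with 1 tendon per library. The sample titles read D28 post-depletion instead, and the day post-surgery given by the authors was used here. Mice of both groups carried the Rosa-DTR allele, in which a floxed STOP cassette keeps the diphtheria toxin receptor off until Cre removes it, and both received 5 daily injections of diphtheria toxin (DT) from D14 to D18. Scx-Cre acts in every cell that has ever expressed the tendon transcription factor *Scx*, so that the toxin was directed at the whole *Scx* lineage, and cells outside that lineage were not targeted. The harvest took place after the depletion had ended, and the comparison holds no tendon without toxin or without surgery.

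MHC class II molecules carry peptides from engulfed proteins to CD4 T cells and are made mainly by dendritic cells, macrophages and B cells. MHC class I molecules carry peptides from inside the cell to CD8 T cells and are made by nearly every nucleated cell. Class II transcription depends on CIITA, a coactivator that binds no DNA itself and is recruited by factors sitting on a short promoter module of an X box and a Y box, while the class I counterpart of CIITA is NLRC5. Interferon-gamma raises both.

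The X and Y boxes are shared by class II and class I promoters, which is why 2 promoters of each class are shown. In the RefSeq promoter sequences (build GRCm38.p6), the 250 bases upstream of each gene start were searched on the gene's own strand for TGANG, the core of the X2 box, followed after 15 to 35 bases by ATTGG, the core of the Y box (CCAAT on the other strand). The pair was present in 2.24% of 32851 promoters and in 7 of 9 promoter entries of the members. The 9 entries belonged to 7 genes. *H2-Aa*, *H2-Eb1*, *H2-DMb1*, *H2-K1*, *H2-D1* and *B2m* held it with 19 to 21 bases between the cores, a spacing found in 0.472% of all promoters, and neither entry of *H2-DMa* held the pair. The range of 19 to 21 bases is that of the members' own spacings, so the 0.472% is no independent comparison. Where 2 copies of TGANG preceded 1 ATTGG, the nearer was used. *H2-Ab1*, *Cd74* and *Ciita* had no entry. The sequences are given 5′ to 3′ on the gene's strand, with both cores in capitals: *H2-Aa* from the minus strand of chr17:34287857-34287922, *H2-Eb1* from the plus strand of chr17:34305759-34305822, *H2-K1* from the minus strand of chr17:34000349-34000413, and *B2m* from the plus strand of chr2:122147584-122147648.
H2-Aa: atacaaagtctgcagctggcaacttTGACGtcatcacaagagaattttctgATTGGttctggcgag
H2-Eb1: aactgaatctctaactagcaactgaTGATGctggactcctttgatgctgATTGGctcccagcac
H2-K1: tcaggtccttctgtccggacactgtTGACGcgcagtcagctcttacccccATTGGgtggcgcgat
B2m: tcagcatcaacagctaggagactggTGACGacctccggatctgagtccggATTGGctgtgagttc
The spacing between the cores was 21 bases in *H2-Aa*, 19 in *H2-Eb1* and 20 in both class I promoters. ATTGG alone, on either strand, was present in 33.8% of all promoters. A match is a description of the letters only, and no binding was measured.

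Library totals ranged from 42744138 to 48854310 gene counts. The levels below are TMM-normalized counts, scaled to the mean library size, and log2 fold changes are DTRScxLin over WT from edgeR's quasi-likelihood test, with Benjamini-Hochberg adjustment over all 17496 genes tested. The 20 skeletal muscle genes checked held 1.98% to 2.73% of the counts in WT libraries, 2.40% in DTRScxLin replicate 2, and 0.341% and 0.645% in DTRScxLin replicates 1 and 3. The 10 Langerhans cell and epithelial genes checked, keratins of skin among them, held 0.286% and 0.181% of the counts in WT replicates 1 and 2. They held 0.0256% in DTRScxLin replicate 3, and 0.000499% to 0.000946% in the other libraries. *Xist*, the RNA of the inactive X chromosome, had 49303, 53828 and 54082 counts in WT replicate 2 and DTRScxLin replicates 2 and 3 and 3 to 4 counts in the other libraries, so that both sexes were present in both groups. The tendon genes *Tnmd* (50544 to 92273 normalized counts) and *Col1a1* were abundant in every library. Of 12 tendon cell genes tested, 9 were fitted higher in DTRScxLin tendons and 3 lower, with a median log2 fold change of 0.31. In 4 of the 12, every DTRScxLin library lay above every WT library (8.96% of all genes), and in 0 below (7.85%). The list held 3.83% to 4.51% of the counts in WT and 4.30% to 5.57% in DTRScxLin libraries.

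First, the chains that form the peptide groove of class II molecules were examined. *H2-Aa*, which codes for the alpha chain of I-A, had 23975, 15838 and 15608 normalized counts in WT libraries 1 to 3, against 13358, 11407 and 11303 in DTRScxLin replicates 1 to 3. *H2-Ab1*, its beta chain partner, had 13220, 9948 and 8991 in WT and 8092, 6241 and 6845 in DTRScxLin tendons. *H2-Eb1*, the beta chain of I-E, had 13973, 9722 and 9222 in WT and 8731, 6388 and 7105 in DTRScxLin tendons. For each of these chains every DTRScxLin library lay below every WT library, and WT replicate 1 was the highest. The mean of *H2-Aa* was 18474 ± 4765 in WT and 12023 ± 1158 in DTRScxLin tendons (both SD, n = 3), 34.9% lower, with a log2 fold change of -0.62 ± 0.18 (SE) and an edgeR adjusted p = 0.354. *H2-Ab1* was 34.1% lower (log2 fold change -0.60 ± 0.17 SE, edgeR adjusted p = 0.346), and *H2-Eb1* was 32.5% lower (log2 fold change -0.57 ± 0.19 SE, edgeR adjusted p = 0.395). *H2-Ea*, the alpha chain that pairs with *H2-Eb1* and that several inbred strains lack in working form, had 7.11 normalized counts in WT replicate 1 and 0 in the other 5 libraries, where a count of 0 allows up to 3 counts. It was not tested.

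*Cd74* codes for the invariant chain, which escorts new class II molecules out of the endoplasmic reticulum and blocks their groove until they reach the endosome. It had 30679, 23611 and 20432 normalized counts in the WT libraries and 17395, 13750 and 14833 in DTRScxLin tendons. No library of one group reached into the range of the other, and the lowest WT library was 1.17 times the highest DTRScxLin library. The mean was 24907 ± 5245 in WT and 15326 ± 1872 in DTRScxLin tendons (both SD, n = 3), 38.5% lower with a 95% interval from 53.4% to 18.8% lower. *Cd74* had the largest difference of the 10 genes, with a log2 fold change of -0.70 ± 0.17 (SE) and an edgeR adjusted p = 0.306.

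*H2-DMa* and *H2-DMb1* code for the DM chains, which remove the invariant chain fragment and let peptides bind. *H2-DMa* had 1342, 1087 and 1176 normalized counts in the WT libraries and 888, 775 and 885 in DTRScxLin tendons. All 3 DTRScxLin libraries lay below the lowest WT library, with the widest relative gap of the 10 genes. *H2-DMa* was 29.3% lower, with a log2 fold change of -0.50 ± 0.11 (SE) and an edgeR adjusted p = 0.274, the smallest of the 10. *H2-DMb1* had 1353, 978 and 931 in WT and 892, 776 and 764 in DTRScxLin tendons, and the groups did not overlap, although the gap was only 1.04-fold (log2 fold change -0.42 ± 0.16 SE, edgeR adjusted p = 0.423). Of the 50-base windows of the longest coding transcript of *H2-DMb1*, 27.2% also occur in *H2-DMb2*, so reads could be split between these paralogs. *H2-DMb2* itself had 160, 65.0 and 96.7 normalized counts in the WT libraries and 90.7, 51.7 and 61.7 in DTRScxLin tendons, far below *H2-DMb1*, and its groups overlapped. *H2-DMa* overlaps *Brd2* on the opposite strand, and whether the counting used strand is not given in the sources used here.

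*Ciita*, the coactivator of the class II genes, was the least abundant member. It had 798, 512 and 476 normalized counts in the WT libraries and 439, 321 and 455 in DTRScxLin tendons. The groups did not overlap, with DTRScxLin replicate 3 only 1.05-fold below WT replicate 3. Its log2 fold change was -0.56 ± 0.23 (SE; edgeR adjusted p = 0.453), and the 95% interval ran from -1.10 to -0.01. *Ciita* overlaps *Dexi* on the opposite strand.

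**Figure D1:**
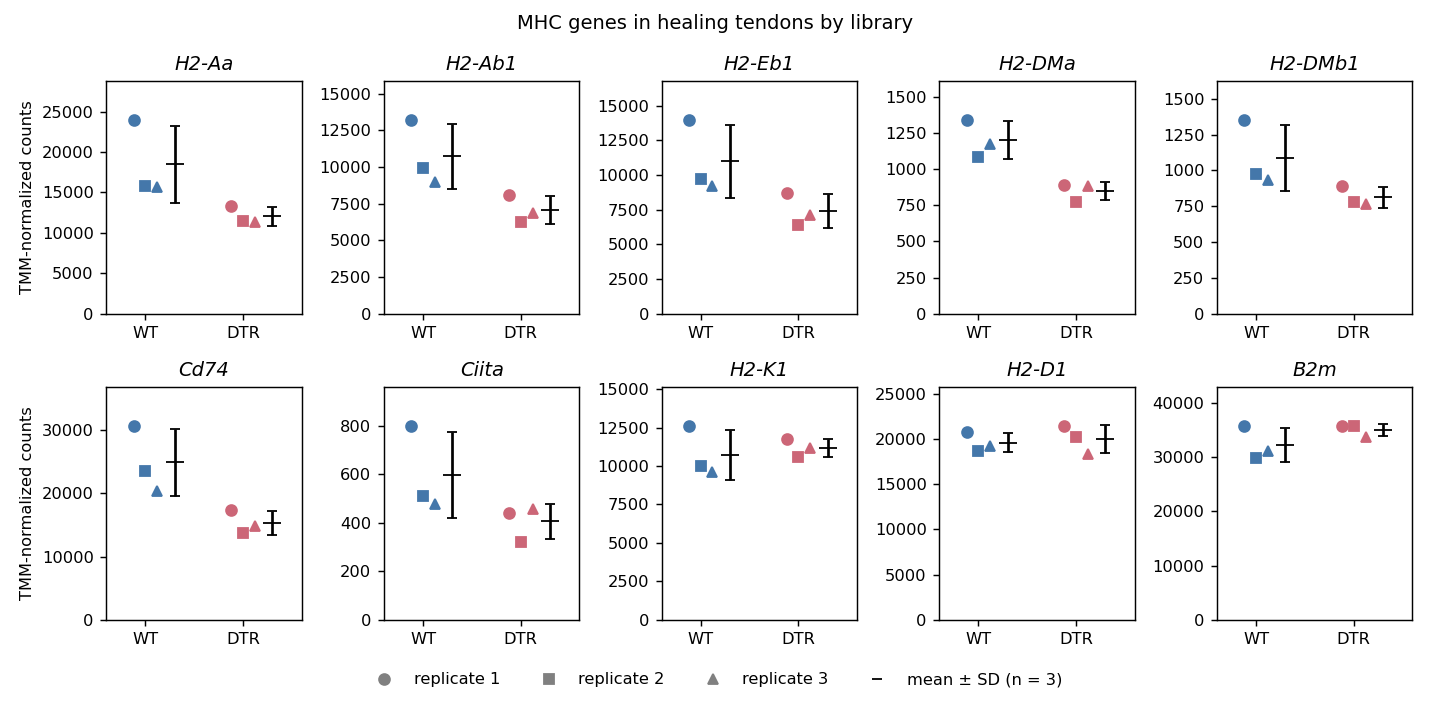
TMM-normalized counts (vertical axes, from 0) of the 10 MHC genes in each WT and DTRScxLin (DTR) library, with the mean and SD of 3 libraries beside the points. For the 7 class II genes every DTR point lies below every WT point and WT replicate 1 is the highest, whereas the groups of *H2-K1*, *H2-D1* and *B2m* overlap.

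All 7 class II members were therefore lower in DTRScxLin tendons without overlap, as were 7.85% of all genes tested, and all 7 had an unadjusted p under 0.05 in edgeR, as did 5.45% of all genes in that direction. None of the 7 had an adjusted p under 0.05 in edgeR, which called 0 genes in either direction (0% of those tested) and whose smallest adjusted p over all genes was 0.199. The median log2 fold change of the 7 was -0.57, against 0.01 over all genes tested. DESeq2, which the authors used, called 1.53% of 17564 genes lower and 1.12% higher. It called 4 of the 7 class II members lower: *Cd74* (adjusted p = 0.00534), *H2-DMa* (adjusted p = 0.0283), *H2-Ab1* (adjusted p = 0.0284) and *H2-Aa* (adjusted p = 0.0348). *H2-Eb1* (adjusted p = 0.0752 from DESeq2), *H2-DMb1* (0.238) and *Ciita* (0.247) were not called. The 7 genes are not independent measurements, since they varied together over the 6 libraries (Pearson r between 0.883 and 0.996 over 21 pairs of genes), and a shared difference between the genotypes enters these values.

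WT replicate 1 set much of the size. Without it, the median of the 7 was -0.39, 4 of the 7 had an unadjusted p under 0.05 in edgeR, and DESeq2 called 0 of the 7 (smallest adjusted p = 0.0539), with 0.681% of genes called lower. The log2 fold changes of *H2-Aa*, *H2-Eb1*, *H2-DMb1* and *Ciita* were then -0.39, -0.35, -0.23 and -0.29. Without WT replicate 2, DESeq2 called 1 of the 7 (*H2-DMa*; 0.367% of all genes lower), and without WT replicate 3 it called 5 (the 4 genes above and *H2-Eb1*; 2.86%). Without DTRScxLin replicate 1 it called *H2-Ab1* and *Cd74* (0.709% of all genes), without DTRScxLin replicate 2 *H2-DMa* and *Cd74* (6.17%), and without DTRScxLin replicate 3 *H2-DMa* alone (1.48%). In edgeR, 4 of the 7 also had an unadjusted p under 0.05 without DTRScxLin replicate 2, and 4 without DTRScxLin replicate 3. That count was thus not particular to WT replicate 1. With *Xist* detection as a covariate, the median was -0.47 and 5 of the 7 had an unadjusted p under 0.05 in edgeR.

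Next, the class I members were examined. *H2-K1* and *H2-D1* code for the heavy chains of the classical class I molecules K and D, and *B2m* for beta-2 microglobulin, the light chain that every class I molecule needs. *H2-K1* had 12603, 9982 and 9627 normalized counts in the WT libraries and 11744, 10576 and 11138 in DTRScxLin tendons. *H2-D1* had 20762, 18690 and 19260 in WT and 21433, 20216 and 18295 in DTRScxLin tendons. *B2m* had 35791, 29882 and 31110 in WT and 35761, 35691 and 33830 in DTRScxLin tendons. The groups overlapped for each of the 3 genes, and WT replicate 1 was again the highest WT library.

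The log2 fold change was 0.05 ± 0.12 for *H2-K1* (SE; edgeR adjusted p = 0.899), 0.03 ± 0.11 for *H2-D1* (SE; edgeR adjusted p = 0.941) and 0.12 ± 0.12 for *B2m* (SE; edgeR adjusted p = 0.716). The 95% intervals ran from -0.23 to 0.34, from -0.22 to 0.28 and from -0.15 to 0.40. The lower ends of these intervals lay above the estimates of 7 of the 7 class II genes. The upper ends of the class II intervals ran from -0.30 (*Cd74*) to -0.01 (*Ciita*), so that several overlapped the class I intervals. The difference between the classes was not tested as such, since it would be a score over genes chosen with results known. Neither edgeR nor DESeq2 called a class I member. Both heavy chains have near-identical relatives in the MHC, and 14.3% of the 50-base windows of *H2-D1* and 8.79% of those of *H2-K1* occur in other genes, such as *H2-Q6* and *H2-T23*, so their counts may be split or shared.

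**Figure D2:**
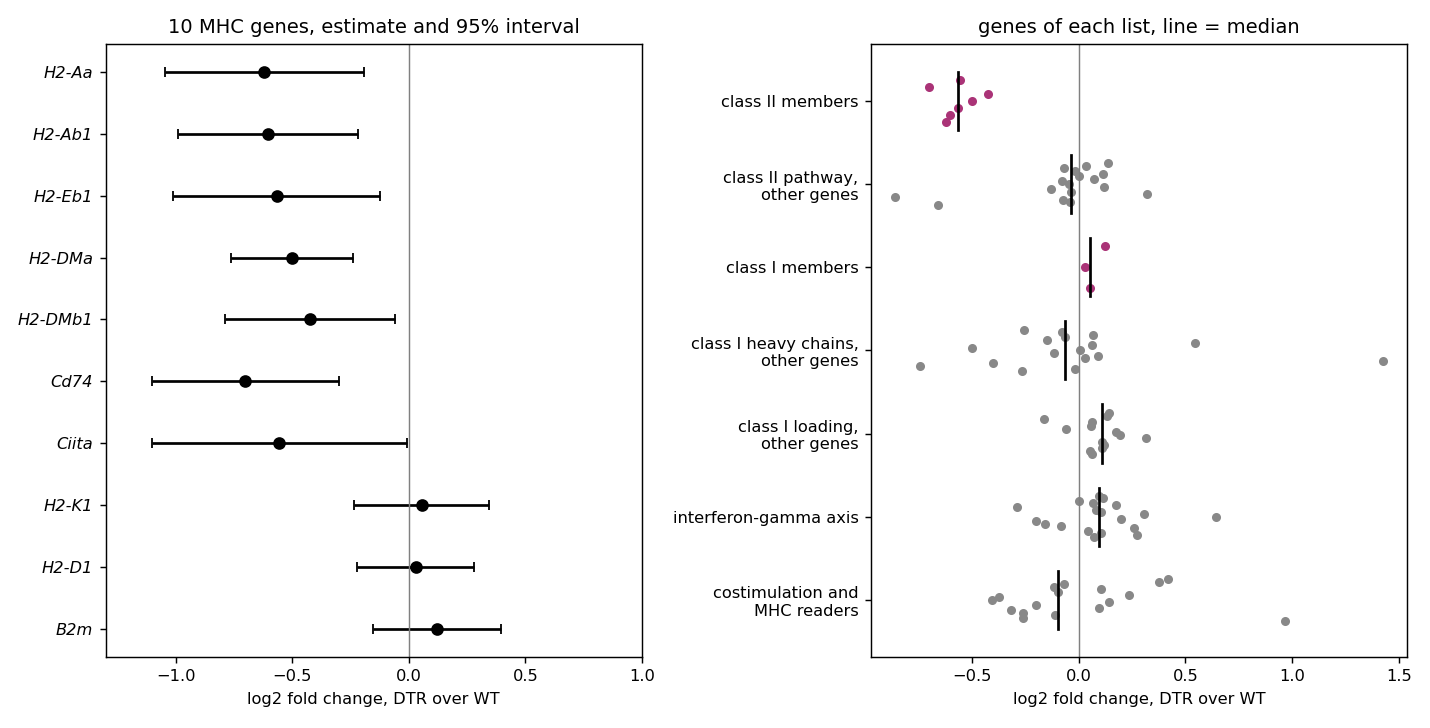
Log2 fold changes (DTRScxLin over WT, edgeR) of the 10 MHC genes with their 95% intervals on the left, and of each tested gene of 7 gene lists on the right, where a vertical line marks the list's median. The class II members lie between -0.70 and -0.42 and the class I members between 0.03 and 0.12, while the other class II pathway genes lie on both sides of 0 and 12 of the 14 other class I loading genes lie above it.

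Levels of different genes were compared per kilobase of the longest annotated transcript. *B2m* was the most abundant member, with 39160 TMM-normalized counts per kilobase over the 6 libraries, followed by *Cd74* with 14267 and *H2-D1* with 9408. *H2-Ab1* (7334), *H2-K1* (5841), *H2-Eb1* (5506) and *H2-Aa* (4731) followed, then *H2-DMb1* (676), *H2-DMa* (512) and *Ciita* (83.3). This order is over both genotypes, and the place of *H2-K1* differed between them: in WT libraries it was the last of these 4 genes (8845 for *H2-Ab1*, 6574 for *H2-Eb1*, 5732 for *H2-Aa* and 5730 for *H2-K1*), and in DTRScxLin libraries the first (5951, against 5824 for *H2-Ab1*, 4439 for *H2-Eb1* and 3730 for *H2-Aa*). The place of *H2-Aa* rests on its length, because its longest transcript (3223 bases) retains an intron: with the longest coding transcript of 1128 bases it had 13518 per kilobase. The longest transcript of *H2-K1* (1874 bases) retains an intron as well. With longest coding transcripts, *H2-K1* was not last in WT libraries (6632, against 6574 for *H2-Eb1*). Nor was it first in DTRScxLin libraries (6889, against 10658 for *H2-Aa*). Per kilobase, *Cd74* had 17665 ± 3720 in WT and 10870 ± 1327 in DTRScxLin tendons (both SD, n = 3), and *H2-D1* had 9311 ± 509 and 9506 ± 753. From *H2-Ab1* to *H2-Aa*, and from *H2-DMb1* to *H2-DMa*, neighbours in this order differed by less than the larger SD of the pair in WT libraries.

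Ratios within a library do not depend on its scaling. The class II members held 0.186%, 0.138% and 0.124% of all counts in the WT libraries (replicates 1 to 3), against 0.102%, 0.0848% and 0.0960% in the DTRScxLin libraries. The class I members held 0.151%, 0.131% and 0.131% in WT and 0.142%, 0.142% and 0.144% in DTRScxLin tendons. The sum of class II counts over the sum of class I counts was 1.23, 1.05 and 0.947 in WT and 0.722, 0.597 and 0.667 in DTRScxLin tendons, without overlap.

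Within class II the proportions of the transcripts were close in both genotypes. The ratio of *H2-Aa* to *H2-Ab1* was 1.71 ± 0.112 in WT and 1.71 ± 0.102 in DTRScxLin tendons (both SD, n = 3). The ratio of *H2-Aa* to *Cd74* was 0.739 ± 0.0595 and 0.787 ± 0.0374, and that of *H2-Aa* to *Ciita* was 31.3 ± 1.39 and 30.3 ± 5.38. The ratio of *H2-DMa* to *H2-DMb1* was 1.12 ± 0.136 and 1.05 ± 0.0934. The groups overlapped in each of these ratios. By contrast, *B2m* over the sum of both heavy chains was 1.07, 1.04 and 1.08 in WT and 1.08, 1.16 and 1.15 in DTRScxLin tendons, where the lowest DTRScxLin library lay only just above the highest WT library.

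The other genes of the class II pathway were then counted. Of 17 tested, 7 were fitted higher and 10 lower in DTRScxLin tendons, where 51.5% of all genes were fitted higher and 48.5% lower, with a median log2 fold change of -0.04 and 0 called by edgeR or DESeq2. An unadjusted p under 0.05 in edgeR was given to 0 in the lower direction (5.45% of all genes) and to 1 in the higher direction (5.52%), which was *Rfx5*. *Rfx5* codes for a subunit of the factor that binds the X box, and it had 1010, 980 and 1010 normalized counts in the WT libraries and 1276, 1274 and 1192 in DTRScxLin tendons. Its groups did not overlap, in the direction opposite to the class II genes, as was the case for 8.96% of all genes (log2 fold change 0.32 ± 0.08 SE, edgeR adjusted p = 0.314). The partner subunits *Rfxap* and *Rfxank* had log2 fold changes of -0.04 and -0.13, and the Y box factors *Nfya*, *Nfyb* and *Nfyc* of 0.12, -0.05 and -0.08, all with overlapping groups.

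Proteases and a reductase that prepare the peptides and degrade the invariant chain were at high levels in both groups. *Ctss*, the cathepsin that trims the invariant chain, had 31155, 22612 and 24125 normalized counts in the WT libraries and 30329, 25714 and 21944 in DTRScxLin tendons, with a log2 fold change of 0.00 ± 0.17 (SE). *Lgmn* and *Ifi30* had -0.02 and -0.07. *H2-Eb2*, with 20 to 70 normalized counts, had the largest negative value of the list (log2 fold change -0.86 ± 0.42 SE, edgeR adjusted p = 0.486), and its groups overlapped. *H2-Oa* and *H2-Ob*, which code for the DO chains that restrain DM in B cells, had -0.04 and -0.08. *Marchf1* and *Marchf8*, ligases that remove class II molecules from the surface, had 0.04 and 0.14. *Marchf8* was higher without overlap, with 3763, 3927 and 3942 in WT and 4054, 4683 and 4049 in DTRScxLin tendons. With *Rfx5*, 2 of the 17 other class II pathway genes were higher without overlap (8.96% of all genes), and 0 were lower (7.85%).

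Of 14 tested genes that load class I molecules, 12 were fitted higher and 2 lower, with a median log2 fold change of 0.11, and 0 were called by edgeR or DESeq2. *Nlrc5*, the class I coactivator, had 906, 608 and 491 normalized counts in the WT libraries and 902, 546 and 766 in DTRScxLin tendons, with overlap (log2 fold change 0.14 ± 0.27 SE). *Tap1* and *Tap2*, the peptide pump, had 0.06 and 0.05, and the immunoproteasome subunits *Psmb8* and *Psmb9* had -0.06 and 0.06. The largest positive values were those of the chaperones *Pdia3* (0.32), *Calr* (0.19) and *Canx* (0.18), which also fold other secreted proteins. Of 17 other class I heavy chain genes tested, 7 were fitted higher and 10 lower, with a median of -0.06 and 0 called. The 3 with the largest absolute values among those with at least 50 normalized counts were *H2-Q10* (log2 fold change 1.42 ± 0.95 SE), *H2-K2* (-0.26 ± 0.23 SE) and *Hfe*, a regulator of iron uptake (-0.26 ± 0.11 SE), and the value of *H2-Q10* came from 256 normalized counts in DTRScxLin replicate 1 against 18.7 to 72.1 in the other 5 libraries.

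Interferon-gamma is the main inducer of *Ciita* outside dedicated antigen-presenting cells. *Ifng* itself had between 1.03 and 12.2 normalized counts and was not tested. Of 19 tested genes of its receptor, signalling chain and targets, 14 were fitted higher and 5 lower in DTRScxLin tendons, with a median log2 fold change of 0.10 and 0 called by edgeR or DESeq2. *Irf1*, which acts on the *Ciita* promoter, had 1980, 1553 and 1566 normalized counts in the WT libraries and 1650, 1455 and 1713 in DTRScxLin tendons, with overlap (log2 fold change -0.08 ± 0.12 SE). The 3 genes with the largest absolute values were *Cxcl9* (0.64 ± 0.70 SE), *Cxcl10* (0.31 ± 0.77 SE) and *Gbp4* (-0.29 ± 0.18 SE), each with overlapping groups. Of the 19, 2 were higher without overlap (8.96% of all genes) and 0 were lower without overlap (7.85%). *Ifngr2*, a receptor chain, was 1 of those higher in DTRScxLin tendons (log2 fold change 0.27 ± 0.09 SE, edgeR adjusted p = 0.371).

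Among 17 tested costimulatory genes and receptors that read MHC molecules, 7 were fitted higher and 10 lower, with a median log2 fold change of -0.10. Of the 17, 2 were higher without overlap (8.96% of all genes) and 1 was lower without overlap (7.85%). *Cd80*, a ligand of CD28 on antigen-presenting cells, had 495, 383 and 526 normalized counts in the WT libraries and 1176, 857 and 706 in DTRScxLin tendons. It was the single gene of the list that DESeq2 called, in the higher direction (adjusted p = 0.00184), where 1.12% of all genes were called higher. In edgeR, *Cd80* had a log2 fold change of 0.96 ± 0.21 (SE) and an edgeR adjusted p = 0.274. *Cd86*, the other CD28 ligand, had 1289, 907 and 1013 in WT and 978, 892 and 811 in DTRScxLin tendons, with overlap (log2 fold change -0.26 ± 0.15 SE). *Cxcr4* and *Lag3*, which had the next largest absolute values, had 0.42 ± 0.18 (SE) and -0.40 ± 0.22 (SE), both with overlap. *Cd44*, a partner of the invariant chain at the cell surface, had 14095, 14823 and 13472 in WT and 20684, 16538 and 17842 in DTRScxLin tendons, without overlap (log2 fold change 0.38 ± 0.12 SE, edgeR adjusted p = 0.360).

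In a bulk tendon, fewer cells of a type and less RNA per cell cannot be told apart, so the markers of the cells that make class II molecules were set beside the members. Over 20 pan-leukocyte genes the median log2 fold change was 0.08. Of these, 0 of 20 had groups without overlap, where 8.96% of all genes were higher and 7.85% lower without overlap. The list held 0.130% to 0.171% of the counts in WT and 0.144% to 0.180% in DTRScxLin libraries. *Ptprc*, which codes for CD45, had 4839, 3566 and 3774 normalized counts in the WT libraries and 5515, 4556 and 3906 in DTRScxLin tendons. The largest absolute values of the list were those of *Srgn* (0.35 ± 0.38 SE), *Plek* (0.30 ± 0.18 SE) and *Lcp1* (0.25 ± 0.16 SE). The sum of class II counts over the sum of pan-leukocyte counts was 1.09, 1.06 and 0.871 in WT and 0.569, 0.581 and 0.669 in DTRScxLin tendons, without overlap. With the pan-leukocyte level as a covariate, the median of the class II members was -0.63.

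Macrophage genes were abundant in every library. Of 20, 7 were fitted higher and 13 lower, with a median of -0.03, and they held 0.434% to 0.532% of the counts in WT and 0.464% to 0.498% in DTRScxLin libraries. Without overlap, 1 of the 20 was higher (8.96% of all genes) and 1 was lower (7.85%). *Csf1r* had 19114, 15209 and 17436 normalized counts in the WT libraries and 15403, 17106 and 14337 in DTRScxLin tendons, while *Adgre1* and *Cd68* had log2 fold changes of 0.13 and -0.01, all with overlap. DESeq2 called 1 gene of the list, in the lower direction (1.53% of all genes). This was *Cd163*, a haemoglobin scavenger receptor of resident macrophages. It had 2515, 2715 and 2124 in WT and 490, 1124 and 945 in DTRScxLin tendons (log2 fold change -1.52 ± 0.31 SE). *Timd4* (-0.82 ± 0.38 SE) and *Lyve1* (-0.56 ± 0.21 SE), also genes of resident macrophages, had the next largest absolute values, with overlap. With the macrophage level as a covariate, the class II median was -0.38 and 3 of the 7 had an unadjusted p under 0.05 in edgeR. The sum of class II counts over the sum of macrophage counts was 0.350, 0.317 and 0.245 in WT and 0.211, 0.170 and 0.207 in DTRScxLin tendons.

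Several lists were mostly fitted lower in DTRScxLin tendons, where 48.5% of all genes were. These were 11 of 12 endothelial, 20 of 20 skeletal muscle, and 10 of 10 Langerhans and epithelial genes tested. Most dendritic cell genes were fitted lower too, as the class II genes were. Of 18 tested, 15 were fitted lower, with a median of -0.28, and 3 of 18 were lower without overlap (7.85% of all genes): *Siglech* (log2 fold change -1.05), *Mgl2* (-0.91) and *Batf3* (-0.68), while 0 were called by edgeR or DESeq2. *Ccr7*, the receptor that takes dendritic cells to lymph nodes, had 456, 93.3 and 159 normalized counts in the WT libraries and 129, 67.0 and 104 in DTRScxLin tendons, so that its log2 fold change of -1.24 ± 0.61 (SE) came largely from WT replicate 1. The defining genes *Flt3* and *Zbtb46* had 500, 184 and 279 and 484, 556 and 583 in WT and 307, 189 and 221 and 573, 480 and 587 in DTRScxLin tendons, with overlap, and *Itgax* had a log2 fold change of -0.11. The list held 0.0287% to 0.0335% of the counts in WT and 0.0274% to 0.0305% in DTRScxLin libraries. With the dendritic cell level as a covariate, the class II median was -0.27 and all 7 were still fitted lower. Of the 7, 0 had an unadjusted p under 0.05 in edgeR. That level itself nearly separated the genotypes. Relative to the WT mean log2 CPM, it was 0.29, -0.26 and -0.02 in WT and -0.37, -0.26 and -0.35 in DTRScxLin tendons. This fit therefore cannot tell the dendritic cell level apart from genotype. The class II sum over the dendritic cell sum was 5.54, 4.80 and 4.02 in WT and 3.74, 2.82 and 3.15 in DTRScxLin tendons, without overlap, whereas the ratio of *Cd74* to *Flt3* overlapped. The part of dendritic cell and macrophage content in the result was not tested.

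*Ms4a1*, which codes for the B cell protein CD20, was close to the floor. Its normalized counts were 18.3, 19.8 and 18.7 in the WT libraries, against 7.22, 5.74 and 9.25 in DTRScxLin tendons, lower without overlap. Of 12 B cell genes tested, 4 were fitted higher and 8 lower, with a median log2 fold change of -0.29, close to that of the dendritic cell list, and 1 of 12 was lower without overlap (7.85% of all genes). Among B cell genes with at least 50 normalized counts, *Bank1* (0.55), *Ebf1* (0.50), which other cells also express, and *Ighm* (-0.35) had the largest absolute log2 fold changes, with overlap. The class II sum over the B cell sum was 15.7, 11.2 and 7.48 in WT and 8.45, 4.39 and 6.38 in DTRScxLin tendons, with overlap. The part of B cell content in the result was not tested. T and NK cell genes were low as well, with 30.1 to 96.5 normalized counts of *Cd3e*. Of 15 tested, 9 were fitted higher and 6 lower, with a median of 0.09. The groups of 1 gene, *Nkg7* of cytotoxic cells, were higher without overlap (8.96% of all genes), and 0 were lower without overlap. The largest absolute value was that of *Ncr1*, an NK cell receptor with 1.04 to 17.5 normalized counts (log2 fold change 0.91 ± 0.87 SE), and above 50 normalized counts those of *Cd2* (-0.39), *Cd3g* (-0.35) and *Cd28* (-0.30). Langerhans cells of the skin make class II molecules too, and their marker *Cd207* had 36.6, 35.8 and 3.12 in WT and 14.4, 3.83 and 15.4 in DTRScxLin tendons. *Cd207* and the keratin genes were thus high in WT replicates 1 and 2 and low in WT replicate 3, which had class II levels near those of WT replicate 2. Together, the 10 Langerhans and epithelial genes held 0.286%, 0.181% and 0.000560% of the counts in WT and 0.000499%, 0.000946% and 0.0256% in DTRScxLin tendons. With their level as a covariate, the class II median was -0.46 and 3 of the 7 had an unadjusted p under 0.05 in edgeR. DTRScxLin replicate 2, whose skeletal muscle share was like that of WT libraries, had the lowest *H2-Ab1*, *H2-Eb1*, *H2-DMa*, *Cd74* and *Ciita* of the 6 libraries. With the muscle level as a covariate, the class II median was -0.75. The part of skin and muscle content in the result was not tested.

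**Figure D3:**
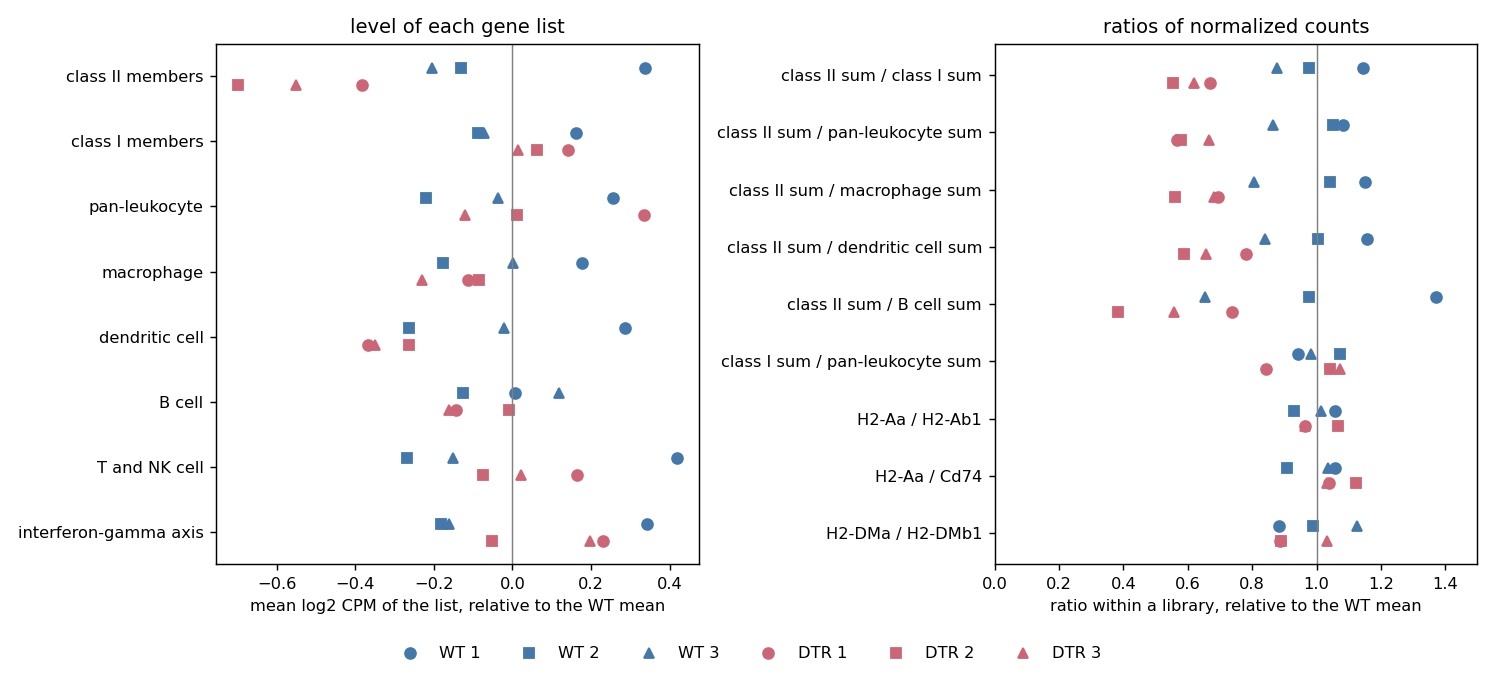
On the left, the mean log2 CPM of the genes of each list in each library, relative to the WT mean, and on the right, ratios of normalized counts within a library, relative to the WT mean (1). WT and DTRScxLin (DTR) points separate for the class II members and for the ratios of the class II sum to the class I, pan-leukocyte, macrophage and dendritic cell sums, and they overlap for the class I members, the pan-leukocyte list, the ratio of the class II sum to the B cell sum and the ratios between class II genes.

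The genes whose levels ran most nearly in parallel with the class II members were listed by Pearson r with their mean log2 CPM over the 6 libraries, among genes with at least 50 normalized counts. *Tec*, a tyrosine kinase of blood cells, came first (r = 0.995), followed by *Blnk*, an adaptor of the B cell receptor (0.988), *Tmem131l* (0.984), *Emp2*, *Rufy3*, *Gdnf*, *Nudt3*, *Grk2*, *Ikbkb* and *Wdr74* (0.973). *Tec* had 1105, 897 and 850 normalized counts in the WT libraries and 768, 679 and 744 in DTRScxLin tendons, and *Blnk* had 980, 790 and 803 in WT and 739, 648 and 655 in DTRScxLin tendons. Both genes were lower without overlap, as were 7.85% of all genes tested. They were picked for likeness to a mean that itself separated the genotypes, so this adds no separate result. For the class I members the list was *Ms4a6c* (0.994), *Cfp* (0.980), *Oga*, *Gpr65*, *Casp1*, *Ifi204*, *Gm20703*, *Ccl7*, *Trmt6* and *Cd3e* (0.971). *Ms4a6c* had 2869, 1795 and 1918 in WT and 2819, 2337 and 2131 in DTRScxLin tendons, high in replicate 1 of both genotypes. These r values are descriptions of 6 libraries that also share the difference between genotypes. Between class II and class I members, r ranged from -0.33 to 0.50 over 21 pairs of genes, and among the class I members from 0.60 to 0.80 over 3 pairs.

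**Figure D4:**
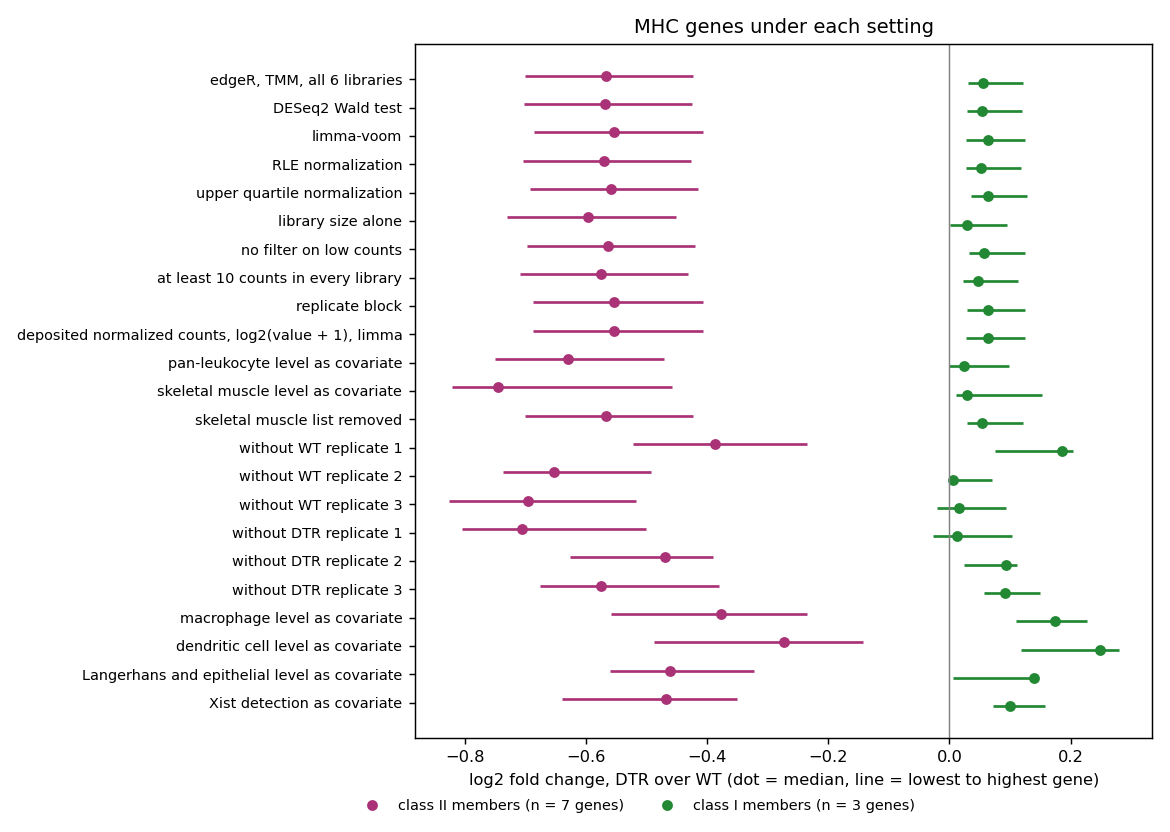
Log2 fold changes (DTRScxLin over WT) of the class II and class I members under each setting of the analysis, where a dot is the median and a line runs from the lowest to the highest gene. The class II median stays between -0.75 and -0.27, with its smallest size when the dendritic cell level is a covariate, and all 7 genes lie below 0 under each setting drawn.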

How the data were processed

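RNA-seq libraries of 3 WT and 3 DTRScxLin FDL tendons were grouped by the labels. The authors cleaned single-end reads, assigned them to genes with featureCounts and deposited raw counts. They also deposited a signal table, the same counts divided by a DESeq2 1.22.1 size factor per library (per the labels and the file itself). Aligner, build, annotation and strand setting are not given in the sources used here. A TruSeq Stranded and a SMARTER kit are both named.

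The analysis ran under R 4.3.3, and the main test was that of edgeR 4.0.16 (filterByExpr, TMM, robust quasi-likelihood, genotype as the single term, threshold 0.05 after Benjamini-Hochberg adjustment), which was tested on simulated data. DESeq2 1.42.0 and limma 3.58.1 served as alternatives. The members and the gene lists were chosen with earlier results of these data known. Named genes were all members, defining markers and regulators of each list, the 3 genes of a list with at least 50 normalized counts and the largest absolute log2 fold change, the 10 genes most like each class, and some chosen after their values were seen (*Ifngr2*, *Nkg7*, *Ncr1*, *Siglech*, *Batf3*, *Mgl2*, *Cd44*, *Cd86*, *H2-Ea*, *H2-Eb2*, list members given for their role). The endothelial, tendon and muscle lists are given by share or by counts of genes. Replicates were separate animals, and libraries of a group differed by far more than sampling noise (chi-square per degree of freedom 40.4 to 206), so n = 3 limits the precision. With 3 against 3, an exact permutation test cannot go below p = 0.1. Transcript lengths, shared windows and gene overlaps came from a mouse reference annotation, and promoters from RefSeq (GRCm38.p6). Protein sequences were not used here. Values of 2 listed genes are not reported here.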

Additional observations from a re-analysis of the deposited data

How the results depend on the processing

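The 7 class II members were fitted lower under all 28 alternatives (medians from -0.75 to -0.27), and the median over all genes lay between -0.02 and 0.02 under each scaling. Counts of genes called were the least stable values. Against 0 and 0 in edgeR, DESeq2 called 197 genes higher and 269 lower, and no filter on low counts gave 45 and 38. With 1 library left out, 0 to 501 genes were called higher and 0 to 1063 lower over both tools, with the most without DTRScxLin replicate 2 (103 and 441 in edgeR). DESeq2 turned *H2-Aa* (-0.62), *H2-Ab1* (-0.60), *H2-DMa* (-0.50) and *Cd74* (-0.70) into calls. Its log2 fold changes and edgeR's with 1 library left out ran from -0.74 to -0.39, from -0.72 to -0.42, from -0.57 to -0.41 and from -0.83 to -0.52, and those of *H2-Eb1* from -0.71 to -0.35. The directions of *H2-K1* and *H2-D1* were not stable, while *B2m* was fitted higher under all 28 alternatives (0.0693 to 0.280): *H2-K1* ran from -0.0255 to 0.188 and *H2-D1* from -0.0275 to 0.0912 with 1 library left out, and *H2-D1* was -0.000192 with the pan-leukocyte level as covariate. Per kilobase, median transcript lengths gave 15607 (*H2-Aa*), 12202 (*H2-Ab1*), 8494 (*H2-Eb1*), 1412 (*H2-DMa*), 1371 (*H2-DMb1*), 130 (*Ciita*), 12705 (*H2-K1*) and 35251 (*H2-D1*), and longest coding transcripts 13518 (*H2-Aa*) and 6761 (*H2-K1*), since lengths differ by construction. Same-numbered libraries did not deviate together (correlations -0.05, -0.02 and -0.57), and the replicate block called 1 gene lower, no member. The covariates for macrophage, dendritic cell, Langerhans and epithelial levels and *Xist*, the longest coding transcript and DESeq2 with 1 library left out were chosen after seeing the data. The causes of these changes were not tested. With 3 libraries a group, differences of the size seen in the class II genes were not called by edgeR, and depth was not varied.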
